A study of Mus musculus with 15 samples.

Results

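The genes that followed the level of Celf2 mRNA across mouse hearts with induced CELF2 were described in ventricle RNA-seq. Members were chosen by their correlation with Celf2 over 12 induced hearts, on the log2(RPKM + 0.5) scale. RPKM is the number of reads per kilobase of coding sequence, scaled to the mapped reads of the library. A member had a Pearson r of at least 0.8 with log2 Celf2, or of at most -0.8. The same limit held after each value was centered within the 6-digit code of its sample title, and the sign was the same inside each of the 3 codes. Genes were tested where their mean RPKM over the induced hearts reached 1, and of these 10535 genes 280 were members. Of these, 257 rose with Celf2 (upward members, 2.44% of the genes tested) and 23 fell (downward members, 0.218%). Upward members were 91.8% of the 280, and 79.0%, 80.3% or 71.8% of the members found after median-ratio, upper-quartile or quantile scaling. Leaving out 12 h replicate 1 gave 408 upward members and leaving out 7 d replicate 1 gave 171. Downward members ranged from 10 without 7 d replicate 1 to 63 without 24 h replicate 2. The rule used these correlations, so the r values below describe the members and carry no test.

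The induced hearts came from FVB mice of 14 to 16 weeks with the genotype MHCrtTA/TRECUGBP2, fed 2 g/kg doxycycline for 12 h, 24 h, 72 h or 7 d, with 3 hearts at each time. In these mice the Myh6 promoter, which is active in heart muscle cells, drives the reverse tetracycline transactivator, and that factor with doxycycline turns on a FLAG-tagged human CELF2 transgene. The 3 control hearts carried MHCrtTA alone and had the same food for 72 h, so diet and transactivator were shared and no control was matched to 12 h, 24 h or 7 d. A Celf1 cassette is also named in the labels of the 12 induced animals, which does not match their stated genotype. What the title codes stand for is not stated. In ascending order, code 1 covered 5 induced hearts, code 2 covered 4 and code 3 covered 3, the last at 72 h and 7 d alone. The induced hearts of code 2 were at 12 h and 24 h alone. Control replicate 1 had code 1, control replicates 2 and 3 had code 2, and no control had code 3.

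CELF proteins bind GU-rich RNA. In the nucleus they act on the choice of alternative exons, often against muscleblind (MBNL) proteins, and in the cytoplasm they bind GU-rich elements of 3′UTRs and can shorten the life of the bound mRNA. CELF activity in the heart falls after birth, and CELF excess in adult heart muscle is one of the features of myotonic dystrophy.

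Celf2 itself, on which all members were ranked, spanned a 4.25-fold range among the induced hearts. It stood at 192, 92.5 and 84.5 RPKM in 12 h replicates 1 to 3, at 173, 165 and 112 RPKM at 24 h, at 261, 217 and 213 RPKM at 72 h, and at 359, 353 and 261 RPKM at 7 d. The controls had 8.54, 11.3 and 9.64 RPKM. The lowest induced heart was 7.50 times the highest control, and the mean log2 difference between induced and control hearts was 4.27. The values cannot separate transgene from endogenous reads. The level rose with time on average, but times overlapped: 12 h replicate 1 stood above every 24 h heart. Time and Celf2 level therefore cannot be fully told apart, and the spread within a time was used as a second view. At every time the hearts of code 1 had more Celf2 than those of the other codes. Inside a time, Celf2 level and title code therefore cannot be fully told apart either.

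A pair of measures moved with Celf2 in the same hearts and are given here because they touch every result. The first is the presence of Y-linked mRNA, which marks male mice and was found in 8 induced hearts (24 h replicates 2 and 3 and all hearts at 72 h and 7 d) and in 1 control. Its mean log2 level had Pearson r = 0.63 with Celf2 over 12 induced hearts (permutation p = 0.029, adjusted over 6 tests 0.044) and Spearman rho = 0.79 (permutation p = 0.0037, adjusted 0.011). The permutations moved hearts freely across times and codes, which these p-values do not allow for. Without the 2 hearts farthest from the median Celf2 level r was 0.32, and after centering within times it was -0.22. With it as a covariate 223 genes met the upward rule, 116 of them among the 257, and 6 met the downward rule, all 6 among the 23. The second is the level of genes with long 3′UTRs against genes with short ones, described below. No gene of the sex-linked list was a member. Among lists of cell type markers, none of the heart muscle, atrial, endothelial, fibroblast, smooth muscle, macrophage, red cell, fat cell or skeletal muscle genes was a member. These lists hold 2 to 12 tested genes each, and at 2.66% membership over all genes a count of 0 is near that share. The 8 heart muscle markers summed to 36741 to 39062 RPKM in controls and 36406 to 45548 RPKM in induced hearts. The 8 lymphocyte markers, which mark cells that the tissue holds few of, summed to at most 2.58 RPKM in any heart. The 9 fibroblast markers summed to 1158 to 1285 RPKM in controls and 907 to 1214 RPKM in induced hearts, and their sum had r = -0.69 with Celf2 over the 12 induced hearts, as did the heart muscle sum, and that of the 8 smooth muscle and pericyte markers had r = -0.66, given as descriptions with no test. A sum follows its most abundant genes. Gene by gene, the median r with Celf2 was -0.02 for the fibroblast markers (from -0.76 to 0.46). It was -0.41 for the heart muscle markers (from -0.86 to 0.82) and -0.57 for those of smooth muscle and pericytes (from -0.78 to -0.007). The part of these measures in the members' pattern was not tested. In whole tissue, fewer cells of a type and less RNA per cell cannot be told apart.

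The median r of the upward members was 0.90 and their median slope 0.46, that is, the log2 level rose by 0.46 for each doubling of Celf2. The mean log2(RPKM + 0.5) over the 257 genes was 3.45, 2.89 and 2.73 in the 12 h hearts, 3.32, 3.28 and 3.01 at 24 h, 3.52, 3.50 and 3.29 at 72 h, and 3.84, 3.82 and 3.59 at 7 d. The heart with the most Celf2 at each time had the highest mean of that time. Between times the order did not always hold: 72 h replicate 3, with 213 RPKM of Celf2, had a lower mean than 12 h replicate 1, with 192 RPKM. In the controls it was 3.34, 3.36 and 3.21, above both of the 12 h hearts with little Celf2 and below all 7 d hearts. The 23 downward members ran the other way, with a median r of -0.87 and a median slope of -0.30. Their mean per heart ranged from 3.68 in 12 h replicate 3, the highest heart, to 2.80 in 7 d replicate 1, the lowest.

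**Figure D1:**
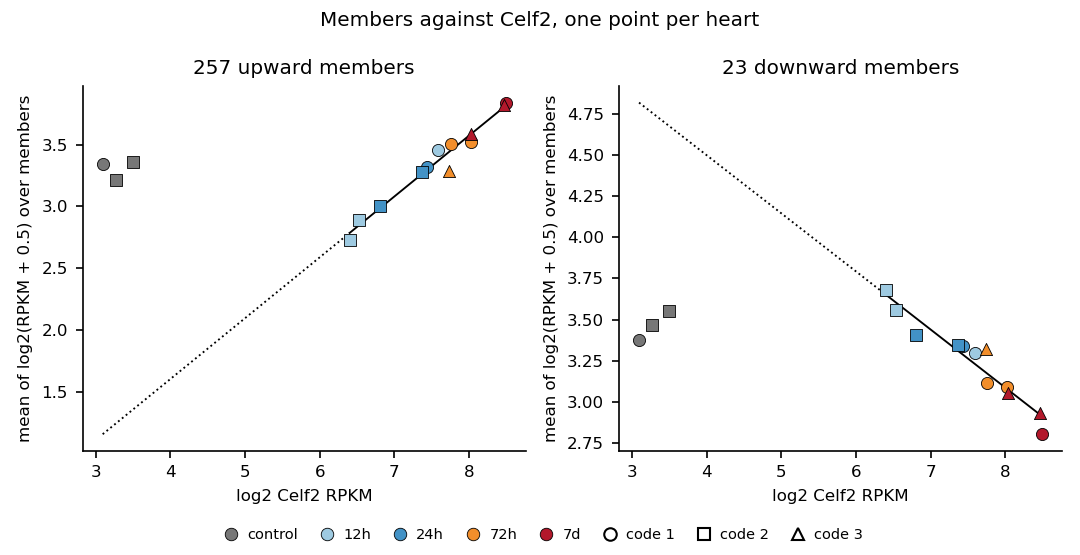
The mean of log2(RPKM + 0.5) over the 257 upward members (left) and 23 downward members (right) is plotted against log2 Celf2 RPKM, with 1 point per heart, color for time and shape for title code. The solid line is fitted to the 12 induced hearts and the dotted part extends it to the controls, which lie above it on the left and below it on the right, a position that choosing members by slope largely fixes.

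The relation was also described inside single times. These values come from the 12 hearts that chose the members, so they are no independent support. They also hold title code, because the hearts of code 1 had the most Celf2 at every time. After centering each gene and Celf2 within its time, the median r of the upward members was 0.87, and 255 of 257 had a positive value (46.5% of all genes tested did). It was at least 0.8 in 170 upward members, 66.1% of them, and in 10.3% of all genes tested. The lowest was that of Plec (r = -0.06), the cytolinker plectin. In the downward members the median was -0.68, and 7 of 23 reached -0.8 or below, and 1.73% of all genes did. The 12 h replicate 1 heart, with more Celf2 than any 24 h heart, was above all 3 of them in 162 upward members (63.0%, and 31.4% of all genes tested), a share that the choice of members raises.

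Among the upward members the steepest slope belonged to Rreb1 (Entrez 68750, chr13:37870269-38043871 of mm9, plus strand), a zinc finger transcription factor that acts downstream of Ras. It had 6.38, 1.28 and 0.89 RPKM at 12 h, 4.82, 4.22 and 1.85 at 24 h, 7.46, 9.06 and 2.17 at 72 h, and 10.7, 9.88 and 4.29 at 7 d. The controls had 4.79, 7.01 and 4.36 RPKM, inside the induced range. Its slope was 1.31 and its r 0.88. Zyg11b, a substrate receptor of a cullin ubiquitin ligase, had a nearly equal slope of 1.28, from 1.28 RPKM in 12 h replicate 3 to 13.2 RPKM in 7 d replicate 1. Prox1, a homeobox factor of heart and lymphatic development, had a slope of 1.09, and Ncoa2, a coactivator of nuclear receptors, had 1.05. In each of these genes the 3 controls lay inside the range of the induced hearts.

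Itpr1 (Entrez 16438, chr6:108163112-108501103, plus strand), the inositol trisphosphate receptor that releases calcium from internal stores, combined a steep slope (1.23) with one of the tighter relations (r = 0.96). It read 7.10, 3.73 and 3.25 RPKM at 12 h, 6.20, 4.82 and 3.59 at 24 h, 12.6, 10.5 and 6.75 at 72 h, and 20.9, 20.8 and 12.6 at 7 d, with 6.40, 5.98 and 3.82 in controls. The 3 controls overlapped the 12 h and 24 h hearts and lay below all 72 h and 7 d hearts. It was the only one of 13 calcium cycling genes tested that was a member.

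The remaining steep genes were B4galt6, a galactosyltransferase of glycolipid synthesis (slope 1.04), Epm2aip1, which binds the glycogen phosphatase laforin (1.00), Atp11a, a phospholipid flippase (0.94), Mical3, an actin-oxidizing enzyme (0.91) and Aqp8, a water channel (0.90). Aqp8 was a low gene, at 0.20 to 3.96 RPKM in the induced hearts, so its log2 values depend most on the added 0.5. Atp11a had 16.4, 17.3 and 10.2 RPKM in controls against 3.12 to 17.4 RPKM in induced hearts, and its mean in controls was 132% of the induced mean.

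The tightest relations were those of Ssh1, a phosphatase that activates the actin-severing protein cofilin (r = 0.98), Nbr1, an autophagy receptor (0.98), Fem1b, a substrate receptor of a cullin ubiquitin ligase (0.97), Marchf6, a ubiquitin ligase of the endoplasmic reticulum (0.97), and Cxadr, the coxsackievirus and adenovirus receptor of the intercalated disc (0.97). Cxadr had 11.7, 6.68 and 6.46 RPKM at 12 h, 9.0, 9.49 and 7.27 at 24 h, 12.8, 12.6 and 10.7 at 72 h, and 16.4, 18.9 and 16.0 at 7 d. Its controls had 9.59, 9.09 and 8.93 RPKM, overlapping the 24 h hearts. Nbr1 was shallow for so tight a relation: its slope was 0.38 and its values ran from 22.9 to 41.7 RPKM.

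Both muscleblind genes expressed in these hearts were upward members. Mbnl1 (Entrez 56758, chr3:60277032-60433670, plus strand) had 31.1, 16.4 and 12.4 RPKM at 12 h, 23.9, 22.3 and 14.7 at 24 h, 27.1, 24.5 and 18.7 at 72 h, and 33.7, 30.1 and 22.4 at 7 d (r = 0.87, slope 0.55). At each time the order of the 3 hearts by Mbnl1 was their order by Celf2. The controls had 25.01, 23.4 and 19.5 RPKM, in the middle of the induced range, and the induced minus control log2 difference was -0.02 ± 0.22 (SE, limma adjusted p = 0.98). Mbnl2 varied less, from 33.4 to 52.5 RPKM in induced hearts and from 33.2 to 42.6 RPKM in controls (r = 0.87, slope 0.27, difference 0.06 ± 0.10, limma adjusted p = 0.84). The place of Mbnl1 and Mbnl2 among the members depended on the processing. Centered within codes, their r was 0.82 and 0.83. The centered value was 0.70 and 0.59 by Spearman rho, and 0.78 and 0.77 under quantile scaling. With the long 3′UTR level as a covariate it was 0.39 in both, and with Y-linked mRNA as a covariate 0.88 and 0.93. Mbnl3 was at most 0.22 RPKM in any heart and was not tested.

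Celf1, the close relative of Celf2, was no member. It had 22.6, 24.4 and 24.5 RPKM in controls and 6.27 to 22.7 RPKM in induced hearts, where the highest value was that of 12 h replicate 1. It fell by 0.98 on the log2 scale in induced against control hearts (SE 0.17, limma adjusted p = 0.016), with the other 11 induced hearts at 15.5 RPKM or less. Inside the induced hearts its r with Celf2 was -0.26, and 0.81 after centering within times.

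**Figure D2:**
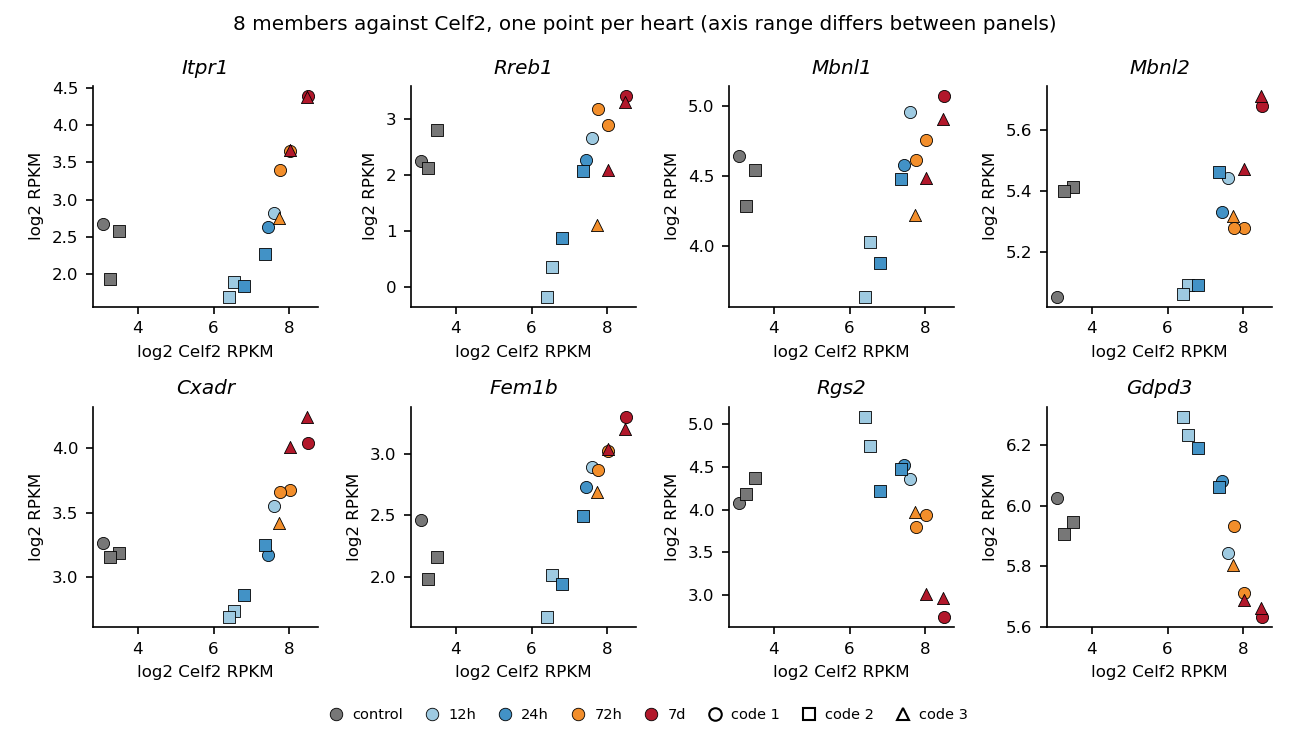
The log2 RPKM of 6 upward and 2 downward members is plotted against log2 Celf2 RPKM, with 1 point per heart, color for time and shape for title code. Induced hearts form a rising or falling band on the right of each panel, and the gray controls sit at the left at levels inside or near that band.

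The other upward members covered several cell functions. The genes of this paragraph and the next were picked after their values were seen, to show the range of functions. In ubiquitin transfer and protein turnover, Nedd4, a ubiquitin ligase of membrane proteins, followed Celf2 with r = 0.96, from 53.8 RPKM in 12 h replicate 3 to 133 RPKM in 7 d replicate 1. Fbxo40, a muscle ligase subunit that acts on insulin receptor substrate, had r = 0.96, and Trip12, a ligase of the nucleus, had r = 0.90. Usp47, a deubiquitinase, had r = 0.96. Of 30 proteasome genes tested 1 was a member, Psmb2, with r = 0.94 but a slope of only 0.18. In growth and nutrient signaling, Insr, the insulin receptor, had a slope of 0.86 and fell between 3.72 and 16.3 RPKM. Mtor, the kinase of both TOR complexes, had 9.0, 4.91 and 4.61 RPKM at 12 h and 9.63, 9.85 and 7.41 at 7 d, with 8.71, 10.3 and 8.38 in controls. Its partner Rptor had r = 0.84 but only 0.40 inside times. Hif1a, the oxygen-sensing transcription factor, had r = 0.96 and read 13.0, 8.97 and 7.85 RPKM at 12 h, 11.3, 10.5 and 10.1 at 24 h, 17.1, 17.3 and 14.6 at 72 h, and 24.6, 22.4 and 21.1 at 7 d. The controls had 13.7, 10.7 and 11.3 RPKM, and the induced minus control log2 difference was 0.24 ± 0.12 (SE, limma adjusted p = 0.43).

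In RNA regulation, Dicer1, which cuts microRNA precursors, had r = 0.88, Ago4, which carries microRNAs, had 0.92, and Tnrc6c, which joins Argonaute to deadenylases, had 0.93. Cpeb2, a binder of cytoplasmic polyadenylation elements, and Larp4, a binder of poly(A) and its binding protein, had r of 0.93 and 0.92 and slopes of 0.72 and 0.82. Of 31 translation factors tested 2 were members: Eif4g1, the scaffold of cap binding (r = 0.86, slope 0.32), and Eif3c, a subunit of eIF3 (r = 0.80, slope 0.11). Their r inside times was 0.29 and 0.25. In the cytoskeleton, Sptbn1, a beta spectrin, spanned 53.6 to 175 RPKM, and Vcl, the adhesion protein vinculin, 23.4 to 43.7 RPKM (r = 0.93). Opa1, which fuses inner mitochondrial membranes, had r = 0.90. None of the 23 sarcomere genes, 43 respiratory chain genes, 30 fatty acid oxidation genes, 44 cytosolic ribosome genes, 26 mRNA decay genes or 19 cardiac stress genes tested was a member in either direction. With 2.66% of all genes being members, a count of 0 in a single list of such a size is near the share over all genes. The lists were not judged together, and nothing is read from these counts.

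The steepest downward member was Rgs2 (Entrez 19735, chr1:145846468-145851291, minus strand), which shortens signaling by Gq-coupled receptors. It had 20.5, 26.7 and 33.9 RPKM at 12 h, 22.9, 22.2 and 18.7 at 24 h, 15.4, 13.9 and 15.7 at 72 h, and 6.69, 7.79 and 8.07 at 7 d (r = -0.89, slope -0.92). The controls had 16.9, 20.7 and 18.2 RPKM, above all 72 h and 7 d hearts and overlapping those at 12 h and 24 h. Inside times its r was -0.54. Cyp2d22, a cytochrome P450, had a slope of -0.55, C1qtnf4, a secreted C1q-like protein, had -0.50, and Mamdc2, an extracellular protein, had -0.47. Trnau1ap, a factor of selenocysteine incorporation deposited as Trspap1, had -0.44. Gprasp1, which sorts receptors to lysosomes, and Cuedc1, which binds ubiquitin, had -0.44 and -0.42. Eif4ebp3, a repressor of cap-dependent translation, had -0.40 and one of the lowest correlations (r = -0.92). Dus2, a tRNA dihydrouridine synthase, had -0.39 and Pla2g4b, a phospholipase, -0.34. Inside times r was -0.34 in Trnau1ap, -0.20 in Gprasp1 and -0.29 in Dus2. In the other genes of this paragraph it lay between -0.50 (Mamdc2) and -0.84 (Eif4ebp3). Mamdc2, at 0.59 to 2.12 RPKM in induced hearts, and Pla2g4b, at 1.22 to 2.64 RPKM, were low genes. With 0.1 added in place of 0.5, C1qtnf4 and Pla2g4b no longer met the rule (r = -0.799 centered within codes in both).

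The tightest downward relations belonged to Gdpd3, a lysophospholipase (r = -0.96), and to the chromatin genes Brd9 (-0.94), a subunit of a BAF complex, and Ash2l (-0.93), a subunit of histone H3 lysine methyltransferases. Gdpd3 had 57.4, 75.3 and 78.5 RPKM at 12 h, 67.8, 66.9 and 73.1 at 24 h, 52.5, 61.1 and 55.9 at 72 h, and 49.6, 50.7 and 51.6 at 7 d. Its controls had 65.2, 61.7 and 60.0 RPKM, below all 24 h hearts and above all 7 d hearts. Lrch1, a leucine-rich repeat protein, had r = -0.90. Among 37 splicing and RNA-binding genes the only member was the SR protein Srsf6 (r = -0.80, slope -0.17), at 50.3 to 73.3 RPKM in induced hearts and 57.4 to 66.0 RPKM in controls. At the edge of the rule, Cops2 was just inside the upward members (r = 0.80003 centered within codes) and Ptch1 just outside (r = 0.7999 over the 12 hearts). C1qtnf4 was just inside the downward members (r = -0.801 centered within codes) and Emd just outside (-0.7996).

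All 3 controls lay inside the range of the 12 induced hearts in 243 of 257 upward members (94.6%, against 72.7% of all genes tested), and in 17 of 23 downward members. In no upward member were the controls below all induced hearts, against 0.199% of all genes. In 2 downward members they were above all of them, against 1.17% of all genes. The control mean was above the 12 h mean in 245 upward members (95.3%, against 69.9% of all genes). These members have a wide induced range by choice, which makes an overlap with the controls more likely. With the line through the induced hearts extended to the Celf2 level of the controls, the measured control level was above the line in 257 of 257 upward members (median 1.86 on the log2 scale) and 0 of 23 downward members (median -1.10). Over all genes tested 65.6% were above it (median 0.28). The choice of members by slope largely fixes this outcome, so nothing is read from it.

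The induced and control hearts were then compared by limma over all genes tested, with the 4 times weighted equally. The spread within this test draws on the hearts that chose the members, so it is not independent of the rule. Title codes were also spread unevenly between induced and control hearts, and no control had code 3. The median induced minus control log2 difference was 0.03 in upward members, -0.22 in downward members and -0.06 over all genes. Of the 257 upward members 4 were higher in induced hearts at an adjusted p under 0.05 and 0 were lower, against 0.294% of all genes tested higher and 0.589% lower. Higher genes were 33.3% of all calls, and 59.5%, 47.7% or 56.2% under median-ratio, upper-quartile or quantile scaling. At an unadjusted p under 0.05 the upward members had 24 higher and 3 lower, and 4.17% of all genes were higher and 9.14% lower. Without 12 h replicate 1 these counts were 23 higher and 15 lower. The 4 are named after their values were seen. Dnajc27, a small GTPase with a J domain, was higher by 0.63 ± 0.11 (SE, limma adjusted p = 0.016), at 3.21 to 10.8 RPKM in induced and 3.21 to 4.0 RPKM in control hearts. Zwint, a kinetochore protein, was higher by 0.47 ± 0.09 (limma adjusted p = 0.022) and Zfp9, a zinc finger protein, by 0.57 ± 0.12 (limma adjusted p = 0.048). Trim63, the muscle atrophy ligase MuRF1, was higher by 0.45 ± 0.10 (limma adjusted p = 0.043), at 117 to 270 RPKM in induced and 119 to 139 RPKM in control hearts. For all 4 the 12 h hearts overlapped the controls and the 7 d hearts lay above them. Without control replicate 2 or 3, or with Y-linked mRNA as a covariate, none of the 257 passed.

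Of the 23 downward members 2 were lower in induced hearts. Trnau1ap had 22.4, 20.2 and 20.1 RPKM in controls and 9.15 to 19.0 RPKM in induced hearts, with no overlap, and fell by 0.57 on the log2 scale (SE 0.07, limma adjusted p = 0.0025). Dus2 had 5.05, 5.96 and 6.35 RPKM in controls and 2.30 to 5.28 RPKM in induced hearts and fell by 0.58 (SE 0.12, limma adjusted p = 0.043). With the title code as a covariate the counts were 10 upward members higher and 6 downward members lower, in a fit where 181 genes in all were higher and 725 lower.

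What the upward members shared outside the rule was length. RPKM was counted over coding sequence, so reads in a 3′UTR are not counted in these values. RNA quality and coverage along the mRNA were not examined, and other effects of length on these values were not tested. In the gencode annotation of mm9 the median 3′UTR was 2203 nt in upward members, 1013 nt in downward members and 907 nt over all genes tested. A 3′UTR of more than 2000 nt was present in 53.2% of upward members that had one annotated, against 21.9% of all genes. Their coding length was greater too, at a median of 2205 nt against 1359 nt, and so was their whole transcript length (5134 nt against 2802 nt). When all genes were split into 10 equal groups by 3′UTR length, the share of upward members rose from 0.78% in the shortest to 8.21% in the longest. The median r with Celf2 over all genes of a group, members or not, went from -0.05 to 0.61 between the same groups. The median induced minus control difference did not follow 3′UTR length: it was -0.07 in both. Across 10224 genes, which are not independent replicates, the Spearman correlation of r with 3′UTR length was 0.28. It was 0.28 with whole transcript length as well, and 0.15 with coding length. Length of the 3′UTR and length of the transcript were not told apart. The induced minus control difference had a Spearman correlation of 0.04 with 3′UTR length, -0.06 with transcript length and -0.12 with coding length.

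Long and short genes separated in the hearts themselves. For genes that were no members, the mean log2 level of the longest group minus that of the shortest was taken in each heart, relative to the control mean. It was 0.26, -0.28 and -0.34 in the 12 h hearts, 0.11, -0.05 and -0.21 at 24 h, 0.13, 0.15 and -0.20 at 72 h, and 0.27, 0.14 and -0.05 at 7 d, with 0.06, 0.03 and -0.09 in controls. All 5 induced hearts of code 1 were above 0 and all 4 of code 2 were below it, the lowest being 12 h replicate 3. Over 12 induced hearts this level had Pearson r = 0.78 with Celf2 (permutation p = 0.0035, adjusted over 6 tests 0.011) and Spearman rho = 0.73 (permutation p = 0.0094, adjusted 0.019). Without the 2 hearts farthest from the median Celf2 level r was 0.56. It was 0.45 within code 1, 0.996 within code 2 and 0.999 within code 3 (5, 4 and 3 hearts), and 0.90 after centering within times. With this level as a covariate, an alternative added after the data were seen, 48 genes met the upward rule and 8 the downward rule. Of the 257 upward members 16 were among them, and of the 23 downward members 0. Its part in the members' relation with Celf2 was not tested beyond these values. The permutations moved hearts freely across times and codes, and the level was built in the hearts that the rule used. Non-members can also include genes with r of at least 0.8 that failed the condition on codes. The p-values of this level are therefore no independent support.

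**Figure D3:**
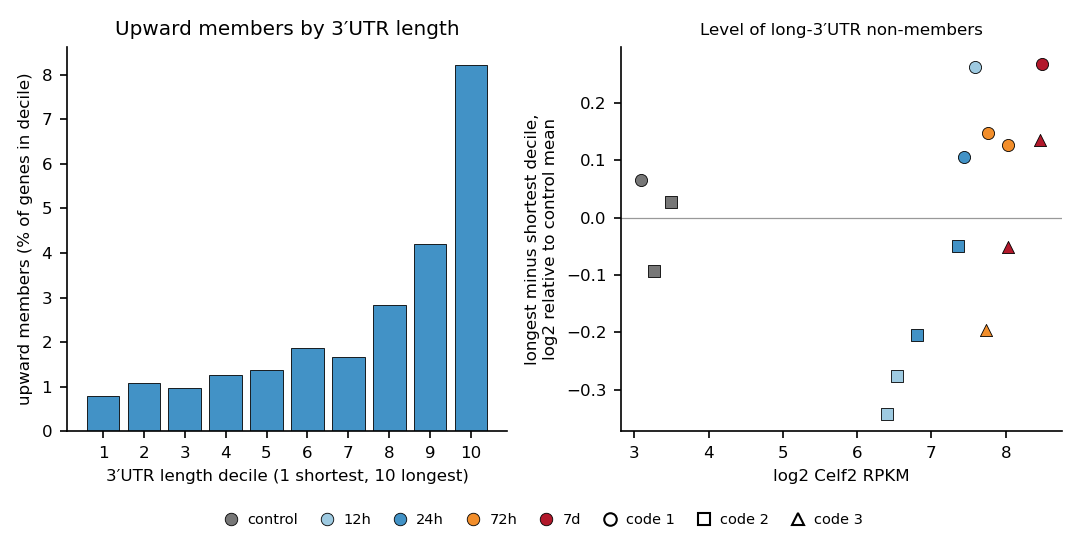
Left, the share of genes that were upward members (vertical axis, percent) in 10 groups of genes by 3′UTR length (horizontal axis, 1 shortest), rising from 0.78% to 8.21%. Right, the mean log2 level of non-member genes of the longest group minus that of the shortest, relative to the control mean, against log2 Celf2 RPKM, with 1 point per heart, color for time and shape for title code.

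The 3′UTRs of members were searched for TGTTTGT on the sense strand, a form of the GU-rich element that CELF proteins bind. It was present in 50.8% of upward members with an annotated 3′UTR, in 17.4% of downward members and in 25.0% of all genes. Per kilobase of 3′UTR the upward members had 0.388 matches, the downward members 0.221 and all genes 0.320. Among genes of the longest group, 65 of 84 upward members held it (77.4%), against 65.6% of all genes of that length. The share was higher in upward members in 7 of 10 length groups, most in the eighth (20 of 29, 69.0% against 36.7%). It was lower in 3, such as the fifth group (2 of 14, 14.3% against 19.7%) and the seventh (5 of 17, 29.4% against 32.2%). Groups 1 to 7 held 8 to 19 upward members each, so a few genes can decide their side. A match describes the letters and not a bound site. The first match and its surroundings are shown for 8 members named above, so that the element can be seen in its sequence. They are 6 upward and 2 downward members, picked among several that hold a match. Each is 30 bases of mm9, 5′ to 3′ on the strand of the gene, with the 7 letters searched in capitals.
Mbnl1, chr3:60432398-60432427, plus strand: atgatttatttTGTTTGTaattagttatta
Rreb1, chr13:38042481-38042510, plus strand: tactagagcccTGTTTGTcccttgccttca
Zyg11b, chr4:107905933-107905962, minus strand: ttgctttgtttTGTTTGTttttgtttttcc
Epm2aip1, chr9:111180767-111180796, plus strand: aaaagtttagtTGTTTGTgacaggttgtct
Fem1b, chr9:62643807-62643836, minus strand: atagaattctgTGTTTGTaaattctccttt
Marchf6, chr15:31388318-31388347, minus strand: tcatgtgtctgTGTTTGTaatattgtatag
Brd9, chr13:74098267-74098296, plus strand: tgctgagtaccTGTTTGTatttataaaaaa
Ash2l, chr8:26926934-26926963, minus strand: gtagcctttttTGTTTGTttgctttgtttt
The last of these, Brd9 and Ash2l, are the downward members. Fem1b held 3 matches in a 3′UTR of 4261 nt and Zyg11b 2 in 6280 nt, while the others held 1 each. Itpr1, Cxadr, Rgs2 and Gdpd3 are examples of members without a match.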

How the data were processed

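Poly(A)+ RNA from 15 mouse ventricles was sequenced on both ends, 3 hearts per group. The authors mapped reads to mm9 with Bowtie and TopHat (versions not given in the sources used here), kept unique reads, and deposited RPKM values per gene over constitutive coding sequence. The table holds 16199 genes, and 10.8% of its values are 0. Read totals are not in the table, so depth is unknown and precision is given as the spread between hearts, which are separate animals. No pair of libraries held identical values.

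Groups came from the sample labels. The labels give no replicate numbers, so these were set here by the order of the samples. The labels give 2 g/kg doxycycline, while the animal list of the study gives another amount for the food. Current gene names came from NCBI (16146 matched), and transcripts from gencode vM1 (10480 of the genes tested, 10224 with a 3′UTR; the transcript with the longest coding sequence). The members and gene lists were chosen with earlier results of these data known. Values were log2(RPKM + 0.5), for genes whose mean RPKM in induced hearts reached 1.

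Correlations and permutation p-values (two-sided, 100000 permutations) were computed with numpy 2.4.6 in Python 3.11.15. The permutation p-values were adjusted with scipy 1.17.1. Induced and control hearts were compared with limma 3.58.1 in R 4.3.3, with trended variance over 5 groups and Benjamini-Hochberg adjustment over 10535 genes. The computations were tested on simulated data. There the rule missed many genes with a shallow slope or a wide spread, fewer being found than a first criterion asked. That criterion was then changed to the recovery of slopes and of genes with little spread. The members are thus not all genes related to Celf2. Named genes were the 10 steepest members in each direction, the 5 highest and 5 lowest r, the CELF, MBNL and sex-linked lists, and up to 4 members of other lists with at least 2. Alternatives covered the pseudocount, low-value filter, scaling, thresholds, covariates and leaving out each heart.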

Additional observations from a re-analysis of the deposited data

How the results depend on the processing

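The upward count of 257 went to 701 at an r limit of 0.7, 30 at 0.9, 852 without the condition on codes, 489 in the 8 hearts with Y-linked mRNA, 7 over all 15 hearts (0 of them shared), 48 with the long 3′UTR level as a covariate and 170 when r inside times also had to reach 0.8. The downward count of 23 went to 114, 0, 126 and 51 under the first 4 of these, 17 over 15 hearts (0 shared), and 8 and 7 under the last ones. It was 71 by Spearman rho, 6 with Y-linked mRNA as a covariate, and 47, 44 and 74 under median-ratio, upper-quartile and quantile scaling, which also took the upward share of members from 91.8% to 79.0%, 80.3% and 71.8%. Leaving out 1 heart gave 171 to 408 upward members, of which 145 to 256 were among the 257, and 10 to 63 downward members. The extremes came without 7 d replicate 1 (171 and 10), 12 h replicate 1 (408) and 24 h replicate 2 (63), and 24 h replicate 3, 72 h replicate 2 and 7 d replicate 3 also moved the downward count by over 1.5 times (37, 41 and 49).

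In the induced against control fit 31 genes were higher and 62 lower. Higher genes numbered 91, 62 and 82 under the 3 scalings (59.5%, 47.7% and 56.2% of calls, against 33.3%). With the title code as a covariate 181 were higher and 725 lower, with Y-linked mRNA 8 and 16, with library quality weights (whose estimate stopped before converging) 379 and 1170, with the long 3′UTR level 174 and 387, and at a minimum mean of 5 RPKM 27 were lower. Leaving out 1 heart gave 2 to 40 higher and 7 to 137 lower genes, the lowest without control replicate 2. Upward members higher in induced hearts, 4 in all, numbered 2 without a filter, 7 under median-ratio scaling, 10 with title code, 0 with Y-linked mRNA, 24 with weights, 19 with the long 3′UTR level and 0 to 6 without 1 heart. Downward members lower, 2 in all, numbered 1 without a filter and at a minimum of 5 RPKM, 6 with title code, 1 with Y-linked mRNA, 11 with weights, 6 with the long 3′UTR level and 1 to 2 without 1 heart. The cause was not tested. The long 3′UTR covariate and the limit inside times were added after seeing the data.

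Of the r values of 33 named genes under 22 alternative settings, 2 changed sign, both over all 15 hearts: Atp11a (-0.013) and Eif3c (-0.015). The r centered within codes changed sign in 11 of the 33 over all 15 hearts, among them Atp11a (-0.38), Ssh1 (-0.20), Mical3 (-0.14), Rreb1 (-0.10) and Mbnl1 (-0.05), and in 0 under the other settings. Over 26 alternatives (25 for Dus2 and Zfp9, which a minimum of 5 RPKM removed) Trnau1ap kept its call in 26 (limma adjusted p 7.0e-05 to 0.038), Dnajc27 in 23 (up to 0.17), Zwint in 21 (up to 0.13), Trim63 in 14 (up to 0.34), Dus2 in 12 (up to 0.28) and Zfp9 in 9 (up to 0.43), and none changed sign. No paired analysis was possible because each heart came from a separate animal. The title codes, which recur across groups, entered as the covariate above. Depth is unknown, so the counting error of low genes such as Aqp8 could not be estimated.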
